A study of Gallus gallus with 6 samples.

Results

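The microRNAs (miRNAs) mir-140 and mir-455, both tied in vertebrates to cartilage, were followed through small RNA libraries of the embryonic chick heart. Every entry carrying one of these names in the lists of known miRNAs was taken, and the lists of predicted miRNAs without a miRBase name were searched for hairpins overlapping theirs on the same strand. This gave 7 entries of 1102 in all, of which 6 were mir-140 (1 per library) and 1 was mir-455, on day 14. No entry of those lists (0) lay on either hairpin. Libraries CHL1 to CHL6 held hearts of day 4 (stage HH24), day 6 (HH29), day 8 (HH34), day 10 (HH36), day 12 (HH38) and day 14 (HH40) of incubation. All embryos were untreated Gallus gallus from eggs of a hatchery, with no allele or agent distinguishing the stages. Each stage was 1 library made from pooled RNA of hearts dissected from the embryos, and the cells of the muscle, the valves and the vessel roots were not separated. There was no replicate, so no test between stages was possible, the intervals below cover counting error only, and stage cannot be told apart from library.

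A miRNA is cut from a hairpin by the enzymes Drosha and Dicer, which leave a duplex of the 5p arm and the 3p arm. One strand enters an Argonaute protein and pairs with target messages mainly through its seed, the bases just after its first one. The strand sequenced less is called the star strand. In mammals miR-140 is made from an intron of Wwp2, is switched on with the cartilage regulator SOX9 and holds down the matrix-degrading protease ADAMTS5, and mice without it have short bones. miR-455 is made in an intron of the fibrillar collagen gene Col27a1 and acts in mammalian cartilage cells on members of the TGF-beta pathway. The valve cushions of the heart also make SOX9 and matrix proteins found in cartilage.

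The forms of mir-140 in the libraries are shown because their ends, and for some forms their seeds, differed between libraries. The only listed form of mir-455 is set beside them. Bases 2 to 8, the seed, are in capitals, and the letters are those of the deposited DNA sequences.
mir-140 3p, days 4, 6, 12 and 14: aCCACAGGgtagaaccacggac
mir-140 3p, day 8: tACCACAGggtagaaccacggac
mir-140 3p, day 10: aCCACAGGgtagaaccacgga
mir-140 5p, 22 nt: cAGTGGTTttaccctatggtag
mir-140 5p, 23 nt: cAGTGGTTttaccctatggtagg
mir-140 5p, 21 nt: cAGTGGTTttaccctatggta
mir-140 5p, later start: aGTGGTTTtaccctatggtag
mir-455 5p, day 14: tATGTGCCcttggactacatcg

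The 3p arm of mir-140 was the listed strand in all 6 libraries, with its 5p arm given as the star. In the UCSC assembly Gallus gallus v.2.1 the form of 22 nt lay on the plus strand at chr11:21030701-21030722, its only genomic match. The day 8 form began 1 base earlier, at 21030700, and the day 10 form ended 1 base earlier, at 21030721. mir-455 was listed through its 5p arm alone, on the plus strand at chr17:5339716-5339737, also a single match. In the RefSeq annotation of the newer assembly GRCg7b, which was used for names and neighbourhood only, both entries were found (2 of 2). MIR140 lay on chromosome 11 within the span of WWP2, which codes for a ubiquitin ligase. MIR455 lay on chromosome 17 within COL27A1 and also within the long non-coding gene LOC107052199.

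The reads of the 3p form of mir-140 were 156 (day 4), 12746 (day 6), 18023 (day 8), 1794 (day 10), 27979 (day 12) and 2111 (day 14). The read totals used for scaling differed as widely. The raw reads reported in the paper differed far less between libraries, so these totals are not a measure of sequencing depth. The total that the deposited RPM (reads scaled to a common total of 1000000) was divided by ran from 228290 reads on day 14 to 37495805 on day 12, and the reads of all known miRNAs from 15957 on day 14 to 7660483 on day 12. Every deposited RPM value was, to within 0.01 read, a whole number of reads times 1 constant per library. The known lists also differed in length. On day 8, 45 of 51 known sequences were 23 nt, on day 10, 71 of 76 were 21 nt, and on day 14, 38 of 41 were 22 nt, against 62 of 112 of 22 nt on day 6 and 68 of 123 on day 12.

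In RPM the 3p form stood at 55.9 on day 4 (95% Poisson interval 47.4 to 65.3), 1379 on day 6 (1355 to 1403) and 3225 on day 8 (3178 to 3272). It then stood at 523 on day 10 (499 to 548), 746 on day 12 (737 to 755) and 9247 on day 14 (8857 to 9650). All listed sequences together made up 0.629% of the RPM total on day 4 and 7.01% on day 14, against 20.7% to 51.6% on the other days. RPM on day 4 was thus low for the lists as a whole. From low to high the order of days for mir-140 3p was 4, 10, 12, 6, 8 and 14, the highest 166-fold above the lowest. No neighbouring pair in this order (0 of 5) had overlapping counting intervals, but the spread between hearts of a stage was not measured.

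As a share of the reads of all known miRNAs, mir-140 3p took 0.917% on day 4 (95% Clopper-Pearson interval 0.779 to 1.07), 0.388% on day 6 (0.381 to 0.394) and 2.14% on day 8 (2.11 to 2.17). The share was 0.103% on day 10 (0.0986 to 0.108), 0.365% on day 12 (0.361 to 0.370) and 13.2% on day 14 (12.7 to 13.8). The order became days 10, 12, 6, 4, 8 and 14, so day 4 moved from the lowest place in RPM to the third highest. Days 8 and 14 were highest on both scales, through a form of 23 nt on day 8 and of 22 nt on day 14. Neither scale divides by the raw reads of a library. By the paper's totals, day 6 had fewer raw reads than day 14 yet more mir-140 3p reads (12746 against 2111). The day 14 peak thus depends on the scale. Among the known families mir-140 held place 8 of 27 (day 4), 14 of 87 (day 6), 8 of 38 (day 8), 21 of 66 (day 10), 18 of 94 (day 12) and 3 of 30 (day 14). On day 14 only mir-26 (20667 RPM) and mir-10 (13860 RPM) stood above it. Of 124 families listed in any library, mir-140 was one of 7 listed in all 6, while mir-455 was one of 39 listed in just 1. Here a family is all known sequences listed under one name, with a few related names joined, such as mir-107 with mir-103. Fewer cells of a type and less of the miRNA per cell cannot be told apart.

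**Figure D1:**
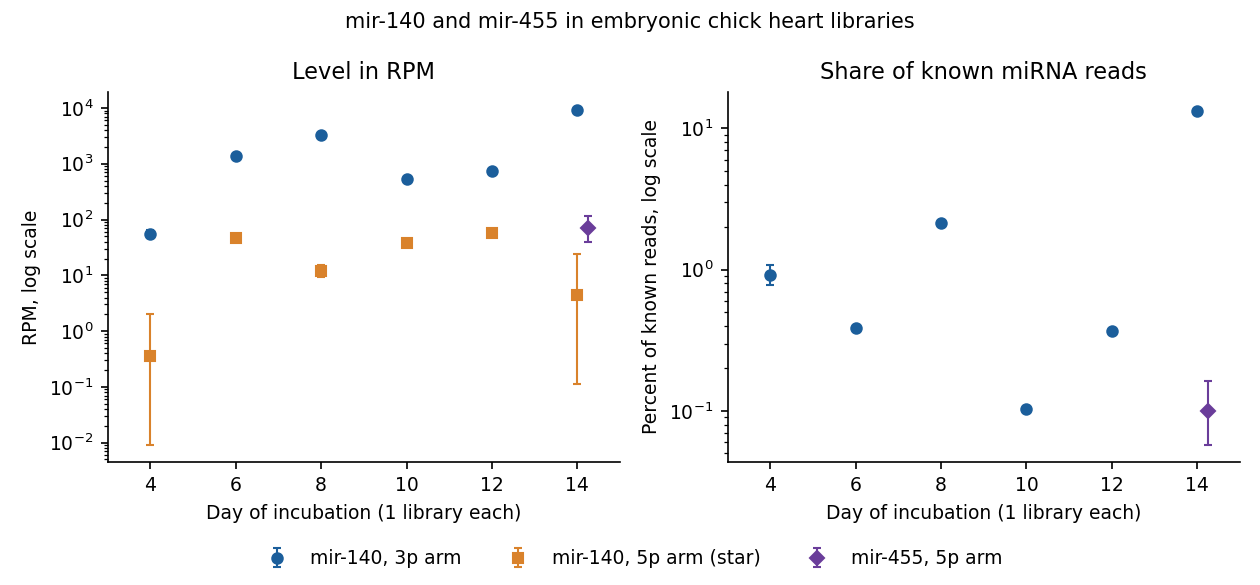
Level of mir-140 3p (circles), mir-140 5p (squares) and mir-455 5p (diamond) by day of incubation, as RPM (left) and, for the listed strands, as percent of the reads of known miRNAs (right), both on log axes. Each point is 1 library with its 95% counting interval, and the 3p level is highest on day 14 on both axes, at 9247 RPM and 13.2%.

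Days 6 and 12 were set against each other because both known lists held sequences of 21 to 24 nt, and both listed the same form of mir-140. The 3p form went from 1379 to 746 RPM, a log2 ratio of -0.89 (95% interval -0.92 to -0.86). Of 74 families listed on both days, 39 (52.7%) were at least 2-fold lower and 13 (17.6%) at least 2-fold higher on day 12, and mir-140 was in neither set. The median family had a log2 ratio of -1.17, and mir-140 held place 34 of 74 from the highest. On the share of known reads its log2 ratio was -0.09 and the median -0.37, at the same place 34. The family just above it was mir-6631 (-0.86, from 6.49 to 3.57 RPM). The family just below was mir-206 (-0.96, from 17.7 to 9.09 RPM), which is known from skeletal muscle and shares its seed with mir-1.

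**Figure D2:**
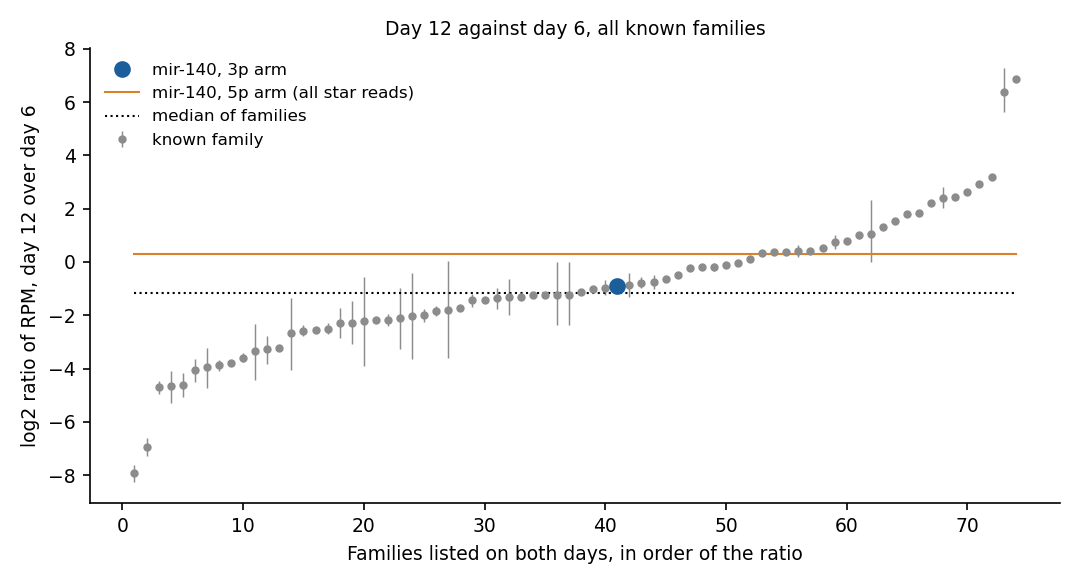
log2 ratio of RPM between day 12 and day 6 for each of 74 known families in rising order (grey points with 95% counting intervals), with mir-140 3p in blue, the family median as a dotted line and the mir-140 5p arm as an orange line. The 3p point (-0.89) sits near the median (-1.17) and the 5p line lies above 0, at 0.29.

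Days 14 and 4 both had few known reads. There mir-140 3p stood at 55.9 and, on day 14, at 9247 RPM, a log2 ratio of 7.37 (7.14 to 7.62). Of the 20 families listed on both days 19 (95%) were at least 2-fold higher on day 14 and 0 were at least 2-fold lower, with a median log2 ratio of 5.34. mir-140 had the highest ratio of the 20, ahead of mir-148 at 6.74 (6.52 to 6.97). For 16 families the whole interval lay below that of mir-140. The intervals of mir-99 (6.55, 5.87 to 7.30), mir-146 (6.53, 5.69 to 7.49) and mir-199 (6.28, 5.46 to 7.21) overlapped it, so counting error does not settle first place. On the share of known reads the log2 ratio of mir-140 was 3.85, or 14.4-fold, against a median of 1.82, and it again came first. The RPM totals were 228290 reads on day 14 and 2793093 on day 4, and they are not a measure of sequencing depth. The paper's raw reads of these libraries differed far less, so the size of this ratio depends on the scale. The lists of these libraries were otherwise short, with 34 known sequences on day 4 and 41 on day 14.

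The reads of the 5p arm of mir-140 were 1 (day 4), 429 (day 6), 67 (day 8), 130 (day 10), 2121 (day 12) and 1 (day 14). As a share of the reads of both arms they made up 0.637% (0.0161 to 3.50) on day 4, 3.26% (2.96 to 3.57) on day 6 and 0.370% (0.287 to 0.470) on day 8. The share was 6.76% (5.68 to 7.97) on day 10, 7.05% (6.76 to 7.34) on day 12 and 0.0473% (0.00120 to 0.264) on day 14. The intervals of days 10 and 12 overlapped, and that of day 4 reached from below day 14 to above day 6. The listed 3p form was thus 13.2 times more abundant than all 5p forms together on day 12. It was 29.7 times more abundant on day 6 and 2111 times on day 14, the last from a single 5p read. Other 3p forms were not listed, so they are missing from these shares and ratios.

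Between days 6 and 12 the levels of the 5p arm and of the listed 3p form differed in opposite directions. The 5p arm stood at 46.4 RPM on day 6 and 56.6 RPM on day 12, a log2 ratio of 0.29 (0.14 to 0.44) beside -0.89 for the listed 3p form. With forms of 22 nt alone, the 5p share was 2.92% (2.64 to 3.22) on day 6 and 6.53% (6.26 to 6.82) on day 12. A ratio of arms within a library does not depend on scaling between libraries. Of 38 known hairpins with 1 genomic match and star reads on both days, 5 (13.2%) had a star share at least 2-fold higher on day 12, and mir-140, at 2.16-fold, was the fifth highest. The star share was higher on day 12 in 14 of the 38, and the median hairpin changed 0.625-fold.

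**Figure D3:**
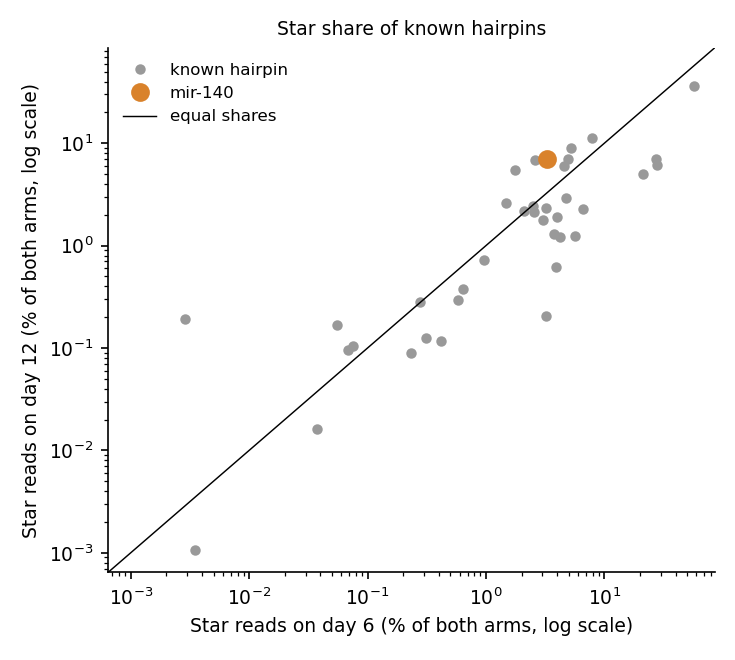
Star reads as percent of the reads of both arms on day 6 (horizontal) and day 12 (vertical), both on log axes, for 38 known hairpins with 1 genomic match, each a point, with the line of equal shares. mir-140 (orange) goes from 3.26% to 7.05%, while 14 of the 38 lie above the line. For mir-140 the 3p arm is counted through its 1 listed form.

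In all, 4 forms of the 5p arm were read, and their lengths went with the library. The form of 22 nt had 383 of 429 reads on day 6 (89.3%, 86.0 to 92.0) and 1956 of 2121 on day 12 (92.2%, 91.0 to 93.3). On day 8 the form of 23 nt had 63 of 67 reads (94.0%, 85.4 to 98.3), against 5.13% on day 6 and 2.22% on day 12. On day 10 the forms of 21 nt had 120 of 130 reads (92.3%, 86.3 to 96.2), against 5.59% on day 6 and 5.56% on day 12. The single reads of days 4 and 14 were both of 22 nt. The same lengths led among the star strands of all known sequences, mir-140 included. The most abundant star form was 23 nt for 13 of 19 known sequences on day 8, 21 nt for 38 of 44 on day 10 and 22 nt for 34 of 60 on day 6, so the length of mir-140 5p went with the whole library. Whether the lists of days 8 and 10 were cut by length during processing was not tested.

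**Figure D4:**
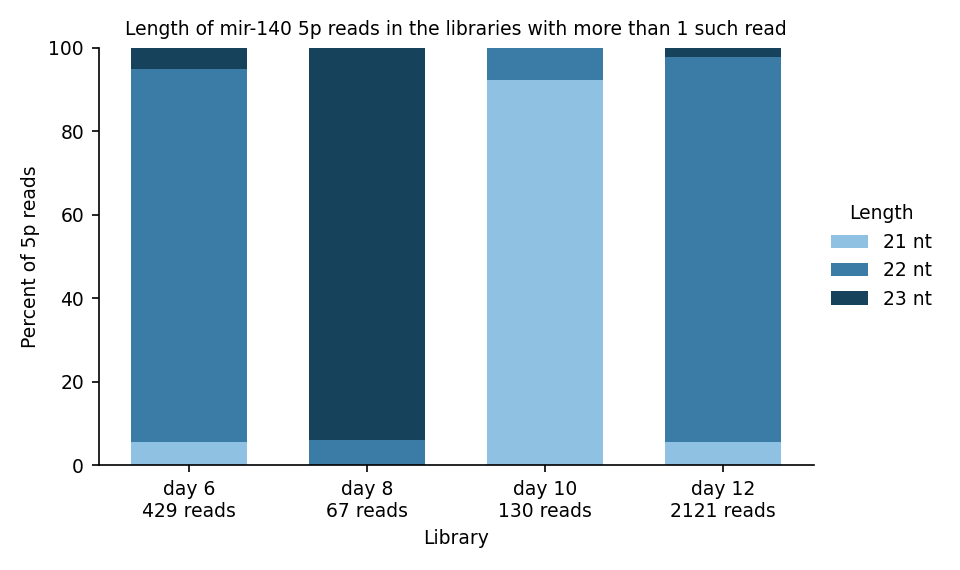
Percent of mir-140 5p reads of 21, 22 and 23 nt in the 4 libraries with more than 1 such read, as stacked bars with the number of reads under each. The 22 nt part is 89.3% on day 6 and 92.2% on day 12, the 23 nt part is 94.0% on day 8, and the 21 nt part is 92.3% on day 10.

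These 5p forms differed almost wholly at the 3′ end. Of 2749 reads of the 5p arm in all libraries, 2742 (99.7%) began at the same base and so carried the seed AGTGGTT. The other 7 reads, 1 on day 6 and 6 on day 10, began 1 base later, which gave the seed GTGGTTT. That form is, letter for letter, the mature miR-140 sequence to which the real-time PCR assay of the study was designed, aGUGGUUUuacccuaugguag in RNA letters, 21 nt long. The main 5p form of 22 nt holds this whole sequence after its first base. Whether the assay told these 5p forms apart was not tested. The assay thus addressed the 5p arm, while the libraries listed the 3p arm as mature.

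On the 3p arm the lists gave 1 form per library, so the mix of 3p forms within a library was not measured. The day 10 form differed from that of days 6 and 12 by 1 base less at the 3′ end, with the seed CCACAGG kept. Of 60 known sequences of day 10 that matched one of day 12, 39, mir-140 among them, were shorter at the 3′ end with the same start. The day 8 form was longer by 1 base at the 5′ end with the same 3′ end, which moved the seed to ACCACAG. Of 45 known sequences of day 8 that matched one of day 12, 44 had the same start and 13 of those were longer at the 3′ end, and mir-140 was the only 1 with an earlier start and the same end. Among unnamed sequences of day 8, 9 of 61 matched ones had an earlier start and the same end. The day 12 sequences that these matched included mir-1720, mir-184, mir-193, mir-1619, let-7 and mir-383. Over both lists, 10 of 106 matched sequences (9.43%) had this shift, so it was not particular to mir-140. The seed of the day 8 form, with 18023 reads, and that of the other 3p forms, with 44786, were each carried by no other listed sequence (0) in any library, named or unnamed. The same held for both 5p seeds and for the mir-455 seed ATGTGCC.

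**Figure D5:**
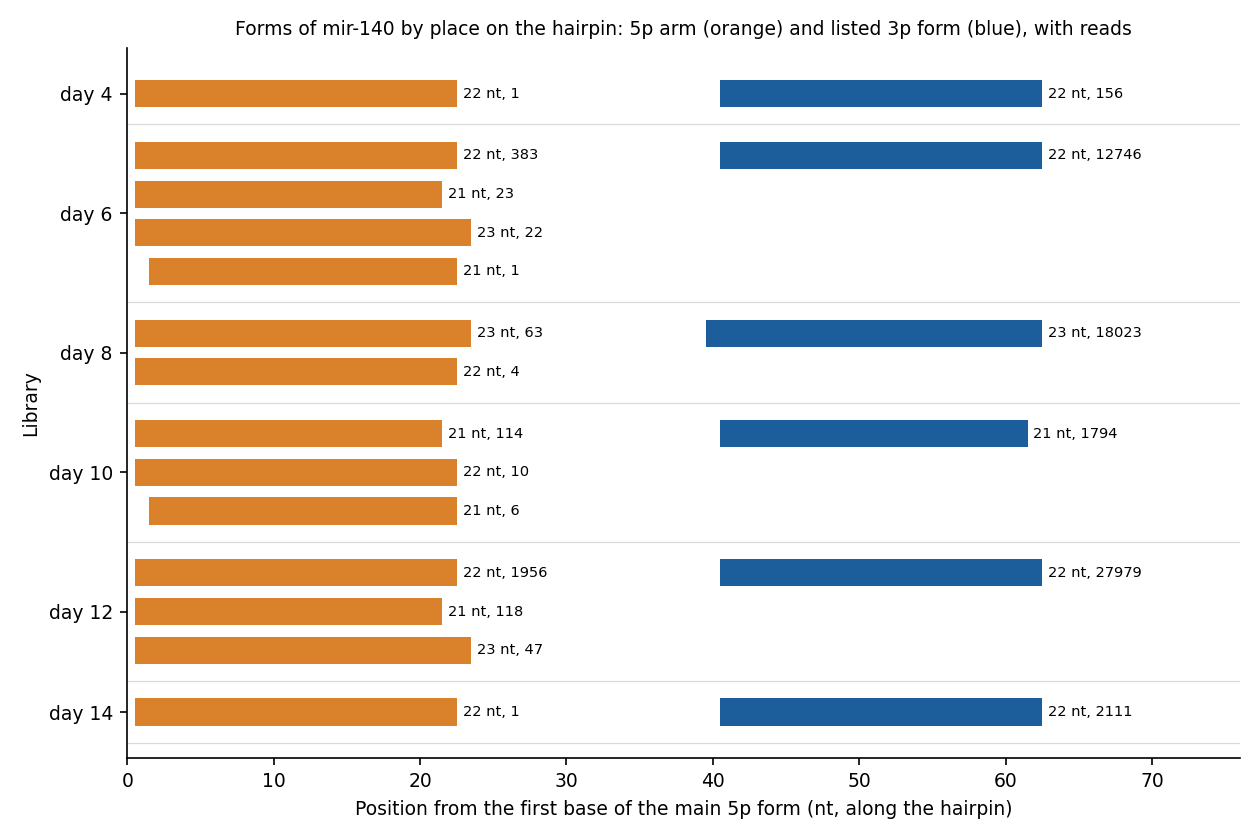
Forms of mir-140 drawn to scale along the hairpin, as distance in nt from the first base of the main 5p form, with each library's 5p forms in orange and its 1 listed 3p form in blue, each labelled with length and reads. The 5p forms share a start except for 1 read on day 6 and 6 on day 10, and the 3p form of day 8 begins 1 base before the others.

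The mir-140 hairpin was deposited as 78 nt with a folding energy of -44.6 kcal/mol, or -57.2 per 100 nt, and 53.8% G and C. For day 10 it was 87 nt, -50.1 kcal/mol and 57.5%. Per length, 0 of 41 known hairpins on day 4, 4 of 131 on day 6 and 5 of 141 on day 12 folded with lower energy, and the median known hairpin of day 12 had -43.7. In the deposited structure 20 of the 22 bases of the 3p form were paired, as were 20 of 22 of the 5p form. Laid on each other, the forms of 22 nt left 3′ overhangs of 2 nt at the loop, where Dicer cuts, and 3 nt at the base, where Drosha cuts. The pair of 23 nt forms of day 8 left the same 2 and 3 nt, since the 3p start and the 5p end both lay 1 base nearer the loop. The pair of 21 nt forms of day 10 left 1 and 2 nt.

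mir-455 was read 16 times on day 14, or 70.1 RPM (40.1 to 114) in a 95% Poisson interval of 9.15 to 26.0 reads, and held place 25 of 30 families. In the same library mir-140 was 132 times more abundant (81.1 to 231), a log2 ratio of 7.04 (6.34 to 7.85). No star read was listed. A count of 0 of 16 reads allows a star share of up to 18.8% (3 reads of 16), or 20.6% as the upper Clopper-Pearson limit used for the other star shares. Its hairpin was deposited as 58 nt with -31.2 kcal/mol, or -53.8 per 100 nt, and 3 of 49 known hairpins of that library had lower energy per length. mir-455 was not listed on days 4, 6, 8, 10 and 12, so its day 12 against day 6 ratio could not be formed. At 70.1 RPM it would have had 196 reads (day 4), 648 (day 6), 392 (day 8), 240 (day 10) and 2628 (day 12), while the lowest listed known entries of those libraries had 6, 6, 6, 2 and 7 reads. The 70.1 RPM comes from a day 14 total of 228290 reads, which is not a measure of sequencing depth. The listed form of mir-455 was 22 nt. On day 8, 45 of 51 known sequences were 23 nt, and on day 10, 71 of 76 were 21 nt. These expected reads thus do not show how likely mir-455 was to be listed. No source used here gives the rule by which entries were left out of the lists, so a level of 0 cannot be read from a missing entry.

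Other miRNAs described in cartilage cells were, like most families, listed in fewer libraries than mir-140. Of all 124 families, 7 were listed in all 6 libraries. On days 4, 6, 8, 10, 12 and 14 the lists held 27, 87, 38, 66, 94 and 30 of the 124. Of 8 such families (mir-199, mir-145, mir-146, mir-27, mir-29, mir-9, mir-221 and mir-222), 4 were listed (day 4), then 5 (day 6), 4 (day 8), 6 (day 10), 4 (day 12) and 3 (day 14). Day 14 was where mir-140 was highest in RPM and in share of known reads, a peak that depends on the scale. The summed level of the 8 families ran from 22.2 RPM on day 4 to 32599 RPM on day 10, and it was 898 RPM on day 14. mir-145 was listed in no library. Heart muscle was marked by mir-133 in 5 of the 6 libraries, from 18.3 RPM on day 8 to 1341 RPM on day 10, and by mir-499 on day 10 only, at 207723 RPM. Its other markers, mir-208 and mir-1, were listed in no library. The endothelial mir-126 was listed in 5 libraries, at 21.5 to 23376 RPM on days 4, 6, 12 and 14 and at 203858 RPM on day 10. On day 10, where the share of mir-140 was lowest, mir-499 took 41.0% and mir-126 40.2% of known reads. The neural mir-9, which is also one of the 8 families described in cartilage cells, was listed in 5 libraries and mir-124 in 2 (days 6 and 10). The epithelial mir-205 was listed in all 6, mir-200 in 4 (days 6 to 12) and mir-203 in 2 (days 6 and 12), and the red blood cell mir-144 in 2, with mir-451 in none. The part of these other cell types in the mir-140 levels was not tested.

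The families whose log2(RPM + 1) followed mir-140 most closely over the 6 libraries, among 40 listed in at least 4, were mir-181 (Pearson r = 0.77), mir-205 (r = 0.75) and mir-122 (r = 0.64). A missing entry was entered as 0 RPM, as for mir-122 on day 4, although it need not be a level of 0. These points share library and scaling. Without day 4, where mir-140, mir-181 and mir-205 were lowest, the r of mir-181 fell to 0.30. mir-181 stood at 68.0, 5577, 86088, 1996, 7155 and 3706 RPM on days 4 to 14, so its highest library was day 8 and not day 14. For mir-455, with 1 value above 0, the closest were mir-140 (r = 0.63), mir-133 (r = 0.36) and mir-26 (r = 0.34), which rests on the day 14 library alone. There, too, missing entries of mir-133 on day 4 and of mir-26 on day 8 were entered as 0.

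The deposited lists of predicted targets held 514 to 840 pairs per library, each for 10 miRNAs, and none of these (0) was a pair of mir-140 or mir-455. Of 13 genes known in mammals as miR-140 targets, among them ADAMTS5, MMP13, HDAC4, IGFBP5 and SMAD3, 0 were listed for any other miRNA. The same held for 6 miR-455 targets, among them SMAD2, ACVR2B and HDAC2 (0 of 6). The share of all genes that these short lists held was not counted, so these counts of 0 cannot be read as a result about the genes. No target of either miRNA could therefore be described.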

How the data were processed

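Size-selected small RNA was sequenced from 1 pooled sample per stage. The authors mapped reads with BLAT to Gallus gallus v.2.1 and matched them to miRBase, and the submitters' notes name TopHat and Cufflinks. The deposited abundance is a raw read count per sequence, and the deposited RPM was scaled by the authors. The G and C percent, the folding energy (another unit, kcal/mol) and the target score were also deposited and were used as given. Star reads were taken from the miRNA* column. The members and lists were chosen with earlier results of these data known. Each sequence was counted once per library. Lines that were incomplete or had no sequence or no abundance (372, of which 370 on day 10) were left out. Named are all forms on both hairpins, the 3 families most alike, the neighbours in the day 12 against day 6 ratio and the fixed marker lists. mir-148, mir-99, mir-26 and mir-10 were added after their values were seen, as were the day 14 against day 4 ratios of mir-146 and mir-199. Intervals (95%, exact Poisson, Clopper-Pearson or conditional) were computed in Python 3.11.15 with scipy 1.17.1. The Poisson and conditional intervals were checked on simulated data. The lists give 1 sequence of the listed arm of mir-140 and mir-455 in a library, so other forms of that arm are missing from each level, while the star arm can have several forms. One PCR copy was counted as 1 read, with no molecular identifiers.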

Additional observations from a re-analysis of the deposited data

How the results depend on the processing

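The day 12 against day 6 log2 ratio of mir-140 3p kept its direction, at -0.086 on the share of known reads, -0.999 per clean read and -0.83 with the star reads added (chosen after seeing the data), beside -0.89 in RPM. The day 14 against day 4 ratio was 3.85 on the share of known reads, beside 7.37, and it was not formed per clean read. With the most abundant star form alone, also chosen later, the 3p share of the hairpin was 97.1% on day 6 and 93.5% on day 12, beside 96.7% and 93.0%. Without day 4, also added later, 1 of the 3 families most like mir-140 was kept. In 5 other alternatives 2 of the 3 families most like a member were kept: mir-455 at a pseudocount of 0.1 and without day 4, mir-140 at a pseudocount of 10, and both on the share of known reads. The other 27 of 39 alternatives gave the same value or stayed within the counting interval. Many of these 27 could not differ and so are no sign of stability. Each member had 1 listed sequence per library, no unnamed sequence lay on its hairpin, and no target pair was listed. mir-455 gave no day 12 against day 6 ratio under any setting, being listed on neither day. No paired analysis was possible because each stage had 1 library. The 5p arm had 1 read on day 4 beside 156 of the 3p arm, and 1 on day 14 beside 2111, so its share there has a wide interval relative to its value.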
